A study of Mus musculus with 18 samples.

Results

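The 10 genes of pattern recognition described here were the Toll-like receptor genes Tlr1, Tlr2, Tlr3, Tlr4, Tlr5 and Tlr6, the cytosolic receptor genes Nod1 and Nod2, the adaptor gene Myd88 and the co-receptor gene Cd14, followed by RNASeq in cultured mouse tubular cells. They were picked by name, with no threshold on measured values but with earlier results of these data known, and all 10 are among the 36528 genes of the files. Primary renal proximal tubulo-interstitial epithelial cells (RPTEC) of C57BL/6 mice, bought from a supplier, received DMSO vehicle, TWEAK at 100 ng/mL, or TWEAK at 100 ng/mL together with NIK SMI1 at 3 μM. Each of the 3 treatments was sampled at 6 h and at 24 h with 3 samples per group, 18 samples in all, and NIK SMI1 was never given without TWEAK. TWEAK is a cytokine of the TNF family that acts through the receptor Fn14, and NIK SMI1 is a small molecule inhibitor of the NF-κB-inducing kinase NIK, which drives the non-canonical NF-κB pathway. The comparisons asked which of these receptor genes responded to TWEAK and how their levels differed when NIK SMI1 was added.

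Toll-like receptors are membrane proteins that recognise conserved parts of microbes. Tlr2, in pairs with Tlr1 or Tlr6, binds bacterial lipoproteins, Tlr4 binds lipopolysaccharide with the help of Cd14, Tlr5 binds flagellin, and Tlr3 binds double-stranded RNA inside endosomes. Nod1 and Nod2 recognise fragments of bacterial peptidoglycan in the cytosol. Myd88 relays the signal of all of these Toll-like receptors except Tlr3, and the pathways converge on NF-κB, interferon regulatory factors and MAP kinases. In the kidney, the tubular epithelium is known to carry several of these receptors and to use them in the response to ascending infection and to tissue damage.

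The promoter sequences of Tlr2, Nod2 and Tlr3 are shown because they are the genes of the set that TWEAK moved most in each direction. They come from RefSeq on build GRCm38.p6 and run 5′ to 3′ on the strand of the gene, from 250 bases before the annotated start to 30 bases after it. Capitals mark matches to the NF-κB consensus, κB, on either strand.
Tlr2: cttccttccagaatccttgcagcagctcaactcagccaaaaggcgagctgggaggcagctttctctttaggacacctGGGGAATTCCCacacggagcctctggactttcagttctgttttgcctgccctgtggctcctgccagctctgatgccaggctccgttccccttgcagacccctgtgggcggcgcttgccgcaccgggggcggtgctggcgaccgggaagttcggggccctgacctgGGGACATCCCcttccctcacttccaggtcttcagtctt
Nod2: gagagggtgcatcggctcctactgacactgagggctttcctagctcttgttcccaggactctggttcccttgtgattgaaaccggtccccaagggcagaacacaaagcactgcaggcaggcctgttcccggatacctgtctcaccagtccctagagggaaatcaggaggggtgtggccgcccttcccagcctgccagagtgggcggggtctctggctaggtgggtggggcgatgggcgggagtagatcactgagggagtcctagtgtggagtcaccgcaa
Tlr3: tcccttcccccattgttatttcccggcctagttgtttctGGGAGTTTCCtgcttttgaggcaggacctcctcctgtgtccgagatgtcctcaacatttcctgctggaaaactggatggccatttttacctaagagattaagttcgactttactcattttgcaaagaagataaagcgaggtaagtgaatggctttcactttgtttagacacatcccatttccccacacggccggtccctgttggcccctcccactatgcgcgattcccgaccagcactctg
The Tlr2 stretch lies at chr3:83841579-83841858 on the minus strand, that of Nod2 at chr8:88647097-88647376 on the plus strand and that of Tlr3 at chr8:45410351-45410630 on the minus strand. Tlr2 held κB matches in 2 stretches, from -173 to -163 and from -8 to 2, where 1 is the first transcribed base and no base is numbered 0. The stretch from -173 to -163 joins matches that overlap each other. Tlr3 held 1 match, from -211 to -202, and Nod2 held none. Windows of 300 bases were at hand for 8 of the 10 genes, not for Tlr4 and Cd14, and these genes had 11 windows in all. Of these windows, 2 held the κB consensus, against 8.46% of all 32851 RefSeq promoter windows of the same length. The interferon response core GAAANNGAA, searched on both strands, was found in 1 window of Tlr6 and in that of Myd88, 2 of 11 windows against 8.56% of all, and the AP-1 site TGANTCA was in 0 of 11 against 7.81% of all. No window of these genes held matches to more than 1 of the 3 motifs, so matches to different motifs did not overlap. A match is only a run of letters and does not show that a factor binds.

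The total of counted reads ranged from 18040966 to 51956444 over the samples (median 35374254). Levels are given as CPM, the reads of a gene scaled by this total, unless stated otherwise, and 3 reads were worth 0.0577 to 0.166 CPM. The sources do not say that the 3 samples of a group came from separate animals or cell preparations, so SDs and p-values measure the spread between cultured samples. The cells carried epithelial genes at high levels (summed CPM of Epcam, Cdh1, Krt8, Krt18 and Krt19 between 7940 and 10600), whereas the defining proximal tubule genes Slc34a1, Slc22a6 and Hnf4a had at most 2 reads in any sample, Lrp2 and Aqp1 stayed at or below 0.586 CPM, Cubn lay between 1.93 and 4.64 CPM, Slc5a2 between 5.83 and 8.52 CPM and Pax8 between 28.3 and 50.5 CPM. The summed epithelial level was 7940 to 8050 CPM with TWEAK at 24 h and 9010 to 9160 with vehicle, and within it Epcam rose (log2 0.90, adjusted p = 5.76e-18) while Krt19 fell most (log2 -0.87, adjusted p = 8.47e-18). The summed level of all 8 proximal tubule genes was 50.6 to 52.3 CPM with TWEAK at 24 h and 59.7 to 63.5 with vehicle, with Pax8 (log2 -0.32, adjusted p = 3.71e-06) and Cubn (log2 -0.51, adjusted p = 0.00528) called lower. Of 9 leukocyte genes, Ptprc, Itgam, Adgre1, Lyz2, Cd3e, Cd79a and Itgax were at or below 0.304 CPM in every sample, and the summed level, nearly all of it Cd68 and Csf1r, was 21.3 to 22.4 CPM with vehicle, 24.4 to 26.1 with TWEAK and 19.9 to 21.1 with TWEAK and NIK SMI1 at 24 h. Summed reads of 8 pancreatic islet genes, which renal cells should lack, amounted to 13.3 to 29.3 CPM in 13 samples. They were 13.3, 0.257 and 4.23 CPM in the 3 TWEAK samples of 24 h and between 0.0677 and 0.145 CPM in the 3 samples with TWEAK and NIK SMI1 at 24 h. The vehicle samples of 24 h held 14.5 to 19.9 CPM. All comparisons between treatments at 24 h, that of TWEAK with vehicle included, are therefore also comparisons of libraries with more and with fewer islet reads. The part of these marker genes in the results was not tested.

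All 10 receptor genes were compared within the groups on a scale per length (CPM per kilobase of exon). In vehicle cultures at 6 h, Cd14 was the highest at 27.0 ± 1.58 (SD, n = 3), followed by Tlr3 at 15.5 ± 0.656 and Myd88 at 6.04 ± 0.626. Tlr5 at 2.39 ± 0.150, Tlr4 at 1.84 ± 0.308, Nod2 at 1.11 ± 0.0869 and Tlr2 at 0.649 ± 0.140 formed a middle tier, and Nod1 reached 0.0847 ± 0.0298. No neighbours in this order overlapped between their 3 samples. Vehicle cultures at 24 h kept much of this order, but Tlr3 at 24.3 ± 0.555 and Cd14 at 24.2 ± 1.96 overlapped, as did Tlr2 at 0.755 ± 0.160 and Nod2 at 0.727 ± 0.102.

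**Figure D1:**
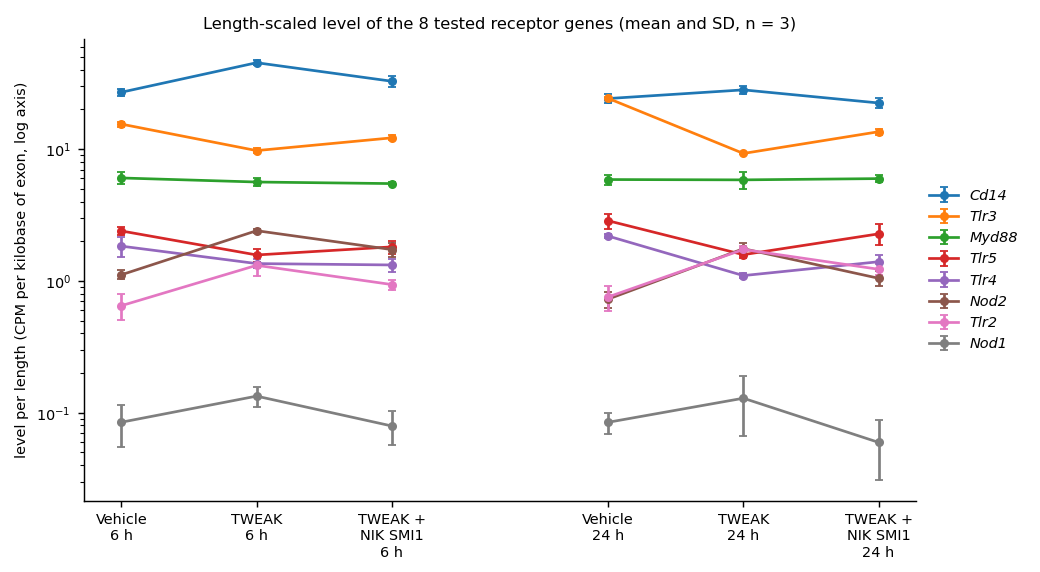
Mean length-scaled level (CPM per kilobase of exon, log axis) of the 8 tested receptor genes in the 6 groups, with bars for the SD of 3 samples. Cd14, Tlr3 and Myd88 stay above the other genes in every group, and with TWEAK the lines of Nod2 and Tlr2 rise to meet those of Tlr5 and Tlr4.

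With TWEAK the middle tier was rearranged. At 6 h, Nod2 at 2.40 ± 0.0794 led it, and Tlr5 at 1.57 ± 0.179, Tlr4 at 1.35 ± 0.103 and Tlr2 at 1.31 ± 0.231 overlapped with their neighbours, while Cd14 stood at 45.2 ± 1.86 and Tlr3 at 9.74 ± 0.413. With NIK SMI1 at 6 h, Tlr5 at 1.81 ± 0.209 and Nod2 at 1.73 ± 0.215 overlapped, Tlr4 followed at 1.32 ± 0.156 and Tlr2 at 0.938 ± 0.0861, and Cd14 was at 32.7 ± 3.04 and Tlr3 at 12.2 ± 0.522. At 24 h the TWEAK cultures differed again. Nod2 stood at 1.76 ± 0.176, Tlr2 at 1.73 ± 0.123 and Tlr5 at 1.58 ± 0.0791 on the same scale per length, and neighbours among them overlapped, while Tlr4 was below them at 1.10 ± 0.0517. Tlr3 at 9.26 ± 0.151 was well below Cd14 at 28.1 ± 1.75. With NIK SMI1 added at 24 h, Tlr5 at 2.27 ± 0.418 led the tier again, ahead of Tlr4 at 1.40 ± 0.183, Tlr2 at 1.22 ± 0.119 and Nod2 at 1.05 ± 0.136, of which neighbours overlapped.

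Tlr1 and Tlr6 were hardly detected. A single read of Tlr1 was counted in all 18 samples, in a TWEAK culture of 24 h, and Tlr6 had 23 reads in total, at most 6 in a sample and 0 in 8 samples. The limit that a count of 0 allows is 0.0577 to 0.166 CPM, depending on the sample. Both genes were too low for a test. They are neighbouring, closely related genes, and reads that fit both equally well are not among the uniquely aligned reads that were counted. How many such reads there were was not measured, so the levels of both genes are uncertain. The other 8 genes passed the filter on low counts (over 10 reads in 4 or more samples) and were tested as part of 15521 genes (edgeR's quasi-likelihood test, Benjamini-Hochberg adjusted p below 0.05). With 3 samples on each side, the smallest p that exact permutation could give a gene is 0.1, so the text also says whether the samples of the groups overlapped.

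TWEAK split the receptor genes into those that rose and those that fell, with the same 3 genes on each side at both times. Tlr2, Nod2 and Cd14 rose and Tlr3, Tlr4 and Tlr5 fell, whereas Nod1 and Myd88 did not pass the test. At 6 h the 3 of 8 genes called higher stood against 11.7% of all tested genes and the 3 called lower against 12.0%. At 24 h the same counts stood against 18.3% and 20.7%. Without the TWEAK sample 2 of 24 h, which had the fewest islet reads of its group, 2 genes were higher at 24 h (against 16.1% of all tested genes) and 3 lower (against 17.7%), and Cd14 was the gene whose call was lost. Tlr2 and Nod2 rose more than 2-fold, as did 1.75% of all tested genes at 6 h and 2.34% at 24 h. In these bulk cultures, a change of the RNA per cell cannot be told apart from a change in the share of cells that carry the gene.

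**Figure D2:**
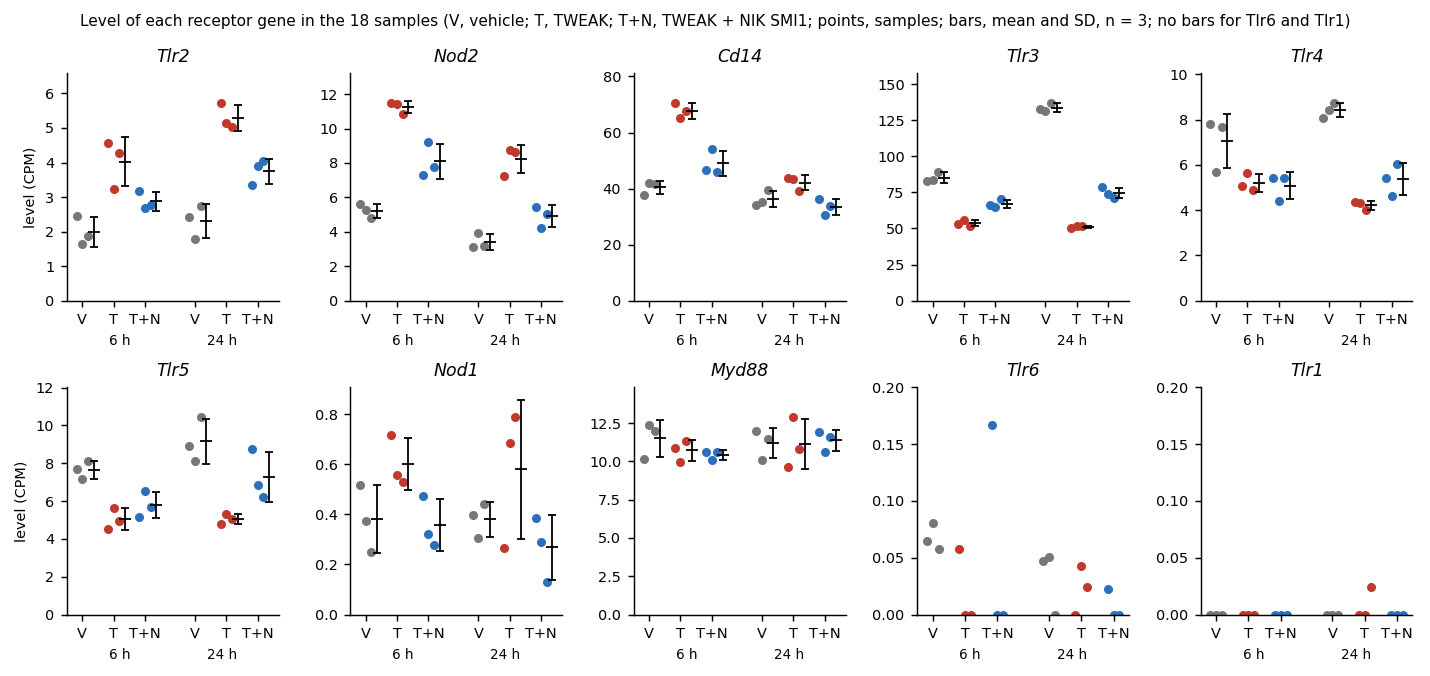
Level (CPM) of each of the 10 receptor genes in the 18 samples, grouped by treatment and time, with a point for each sample and bars for the mean and SD (n = 3, left out for Tlr6 and Tlr1). Tlr2, Nod2 and Cd14 are higher and Tlr3, Tlr4 and Tlr5 lower with TWEAK, and the samples with NIK SMI1 mostly lie between those with vehicle and those with TWEAK.

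Tlr2 (Entrez Gene 24088), the lipoprotein receptor, was a low-level gene that about doubled. Its vehicle samples at 6 h measured 2.46, 1.63 and 1.87 CPM and its TWEAK samples 4.57, 3.22 and 4.28 CPM, without overlap. The fold change was 2.05 (log2 1.03, SE 0.163, adjusted p = 1.53e-05). At 24 h the values were 2.43, 1.78 and 2.73 CPM with vehicle and 5.73, 5.16 and 5.02 CPM with TWEAK, again apart, with a fold change of 2.25 (log2 1.17, SE 0.167, adjusted p = 2.16e-06). The effect of TWEAK at 24 h exceeded that at 6 h by log2 0.13 only (95% interval -0.38 to 0.65, adjusted p = 0.822).

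Nod2 (Entrez Gene 257632), the receptor for muramyl dipeptide, showed the largest rise of the set on the log2 scale at both times. At 6 h it measured 5.61, 5.24 and 4.79 CPM with vehicle and 11.5, 11.5 and 10.8 CPM with TWEAK, a fold change of 2.19 (log2 1.13, SE 0.105, adjusted p = 1.73e-09). The 24 h samples measured 3.09, 3.96 and 3.17 CPM with vehicle and 7.27, 8.73 and 8.65 CPM with TWEAK, a fold change of 2.48 (log2 1.31, SE 0.125, adjusted p = 1.74e-09). In neither case did the samples overlap. Its promoter, shown above, held no κB match in the 300 bases searched, unlike those of Tlr2, which rose, and Tlr3, which fell.

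Cd14 (Entrez Gene 12475), which hands lipopolysaccharide to the Tlr4 complex, rose early and less later. Vehicle samples at 6 h had 37.7, 41.9 and 41.6 CPM against 70.6, 65.0 and 67.5 CPM with TWEAK, a fold change of 1.68 (log2 0.75, SE 0.0635, adjusted p = 3.20e-10). At 24 h the samples overlapped, with 34.0, 35.1 and 39.5 CPM under vehicle and 43.9, 43.3 and 39.1 CPM under TWEAK, and the fold change was 1.17 (log2 0.22, SE 0.0693, adjusted p = 0.0119). This call was lost without the vehicle sample 1 of 24 h (adjusted p = 0.108) and without the TWEAK sample 2 of 24 h (adjusted p = 0.0518), the TWEAK sample nearly free of islet reads. The difference between the 2 times was itself called (log2 -0.53, SE 0.0940, adjusted p = 0.000311).

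Tlr3 (Entrez Gene 142980), the receptor for double-stranded RNA and the most abundant Toll-like receptor transcript of the cells, showed the largest fall. It was at 82.9, 83.3 and 89.4 CPM in vehicle cultures at 6 h and at 53.3, 56.0 and 51.5 CPM with TWEAK, 1.58-fold lower (log2 -0.66, SE 0.0414, adjusted p = 9.56e-13). By 24 h it was at 133, 131 and 137 CPM with vehicle but at 50.05, 51.5 and 51.5 CPM with TWEAK, 2.62-fold lower (log2 -1.39, SE 0.0422, adjusted p = 8.24e-20). The TWEAK cultures were thus at nearly the same level at both times, whereas the vehicle cultures rose from 6 h to 24 h. The larger effect at 24 h was called (difference log2 -0.73, SE 0.0590, adjusted p = 1.22e-09).

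Tlr4 (Entrez Gene 21898), the signalling receptor for lipopolysaccharide, fell less. Vehicle samples at 6 h had 7.81, 5.69 and 7.68 CPM and TWEAK samples 5.08, 5.65 and 4.89 CPM, which left a narrow gap, for a 1.34-fold lower level (log2 -0.42, SE 0.116, adjusted p = 0.00738). Without the vehicle sample 3 of 6 h this call was lost (log2 -0.35, adjusted p = 0.0572). At 24 h the groups were far apart, at 8.09, 8.42 and 8.74 CPM against 4.36, 4.30 and 3.99 CPM, 1.99-fold lower with TWEAK (log2 -0.995, SE 0.125, adjusted p = 2.54e-07). The difference between the times (log2 -0.57, SE 0.170, adjusted p = 0.0322) was close to the threshold. With a sample left out it ranged from log2 -0.65 to -0.44, and it was no longer called without vehicle sample 2 or TWEAK sample 2 of 6 h, or without vehicle sample 1, 2 or 3 or TWEAK sample 2 or 3 of 24 h (adjusted p up to 0.107).

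Tlr5 (Entrez Gene 53791), the flagellin receptor, fell at both times by similar amounts. It measured 7.68, 7.16 and 8.12 CPM with vehicle and 4.51, 5.65 and 4.94 CPM with TWEAK at 6 h, 1.5-fold lower (log2 -0.58, SE 0.119, adjusted p = 0.000397). At 24 h it measured 8.89, 8.12 and 10.4 CPM with vehicle and 4.80, 5.31 and 5.07 CPM with TWEAK, 1.79-fold lower (log2 -0.84, SE 0.124, adjusted p = 3.45e-06). Neither pair of groups overlapped, and the difference between the times was not called (log2 -0.26, 95% interval -0.63 to 0.12, adjusted p = 0.437).

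Nod1 (Entrez Gene 107607), the receptor for peptidoglycan of mainly Gram-negative bacteria, was counted with only 4 to 33 reads per sample. Its 6 h samples had 0.518, 0.374 and 0.250 CPM with vehicle and 0.718, 0.557 and 0.528 CPM with TWEAK, which did not overlap, but the difference did not pass the test (log2 0.72, SE 0.364, adjusted p = 0.172). The 24 h samples overlapped, at 0.398, 0.304 and 0.439 CPM with vehicle and 0.264, 0.685 and 0.789 CPM with TWEAK (log2 0.68, SE 0.392, adjusted p = 0.179). At this depth, the intervals reached from -0.07 to 1.51 at 6 h and from -0.17 to 1.54 at 24 h on the log2 scale, so a rise as large as that of Tlr2 or Nod2 lay within them.

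Myd88 (Entrez Gene 17874), the adaptor shared by most of these receptors, had group means from only 10.4 to 11.5 CPM. TWEAK samples at 6 h had 10.9, 9.96 and 11.3 CPM against 10.1, 12.4 and 12.0 CPM with vehicle (log2 -0.10, 95% interval -0.30 to 0.10, adjusted p = 0.492). At 24 h they had 9.65, 12.9 and 10.8 CPM against 12.0, 10.1 and 11.5 CPM (log2 0.00, 95% interval -0.21 to 0.21, adjusted p = 0.989). The 24 h interval excludes changes as large as those called for the other genes at that time, but for Cd14 (log2 0.223) only narrowly. With a sample left out, the 24 h value of Myd88 ranged from log2 -0.125 to 0.071.

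Adding NIK SMI1 to TWEAK moved several of these genes back towards their vehicle levels. At 6 h, 1 of the 8 genes was higher than with TWEAK alone (Tlr3, against 5.34% of all tested genes) and 2 were lower (Nod2 and Cd14, against 5.70%). At 24 h, 2 were higher (Tlr3 and Tlr5, against 10.2%) and 4 lower (Tlr2, Nod1, Nod2 and Cd14, against 8.29%). The TWEAK samples enter both this comparison and that with vehicle, so the opposite signs of the 2 comparisons are not independent of each other. With the TWEAK sample 2 of 24 h as the only TWEAK sample of that time, the one with as few islet reads as the NIK SMI1 samples, 1 gene was higher (Tlr3, against 5.19% of all genes tested in that fit) and 2 lower (Nod2 and Cd14, against 4.09%). The spread of that lone sample was assumed to be like that of the other groups.

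**Figure D3:**
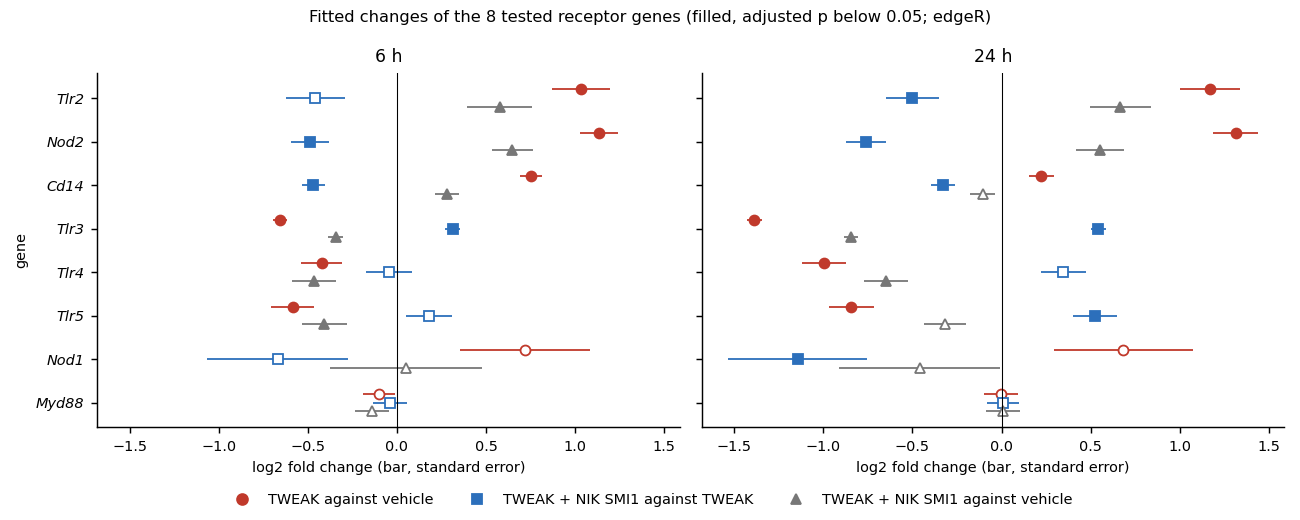
Fitted log2 fold changes of the 8 tested receptor genes at 6 h and 24 h, with bars for the standard error, for TWEAK against vehicle, for TWEAK with NIK SMI1 against TWEAK, and for TWEAK with NIK SMI1 against vehicle (filled where the adjusted p is below 0.05). The changes with NIK SMI1 point away from those with TWEAK for Tlr2, Nod2, Cd14, Tlr3 and Tlr5 at both times, and Myd88 stays near 0.

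Nod2 was lowered by NIK SMI1 at both times. The samples with TWEAK and NIK SMI1 had 7.29, 9.22 and 7.76 CPM at 6 h, all below the TWEAK samples, for a 1.40-fold lower level (log2 -0.49, SE 0.105, adjusted p = 0.00196). At 24 h they had 5.46, 4.20 and 5.04 CPM, again without overlap, 1.69-fold lower (log2 -0.76, SE 0.111, adjusted p = 8.32e-06). With the single TWEAK sample of few islet reads the 24 h value was log2 -0.82 (adjusted p = 0.000327). No receptor gene was called lower by more than 1.5-fold at 6 h, where 1.10% of all tested genes were, and 2 were at 24 h, Nod1 and Nod2, against 1.75%.

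Cd14 also fell with NIK SMI1 at both times. It had 46.7, 54.2 and 46.0 CPM at 6 h, 1.38-fold below TWEAK alone (log2 -0.47, SE 0.0648, adjusted p = 7.33e-06). The 24 h samples had 36.4, 30.5 and 33.6 CPM, 1.25-fold lower (log2 -0.33, SE 0.0673, adjusted p = 0.000715), and log2 -0.36 with the single TWEAK sample (adjusted p = 0.00953). In both cases every sample with NIK SMI1 was below every TWEAK sample.

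Tlr2 had 3.17, 2.67 and 2.77 CPM with NIK SMI1 at 6 h, just below the lowest TWEAK sample, but the difference did not pass the test (log2 -0.46, SE 0.165, adjusted p = 0.0757). Tlr2 passed with no filter and without vehicle sample 1 or TWEAK sample 2 of 6 h (adjusted p between 0.0193 and 0.0492). At 24 h it had 3.34, 3.89 and 4.03 CPM, all below the TWEAK samples, and the 1.41-fold lower level was called (log2 -0.50, SE 0.148, adjusted p = 0.0173). The call was lost without the TWEAK sample 1 of 24 h (adjusted p = 0.0629), without the NIK SMI1 sample 1 of 24 h (adjusted p = 0.0964) and with the single TWEAK sample of few islet reads (log2 -0.46, adjusted p = 0.191).

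Tlr3 rose with NIK SMI1 at both times, without reaching its vehicle level. Its values of 66.4, 64.5 and 70.2 CPM at 6 h lay between those of the TWEAK and the vehicle samples, 1.24-fold above TWEAK alone (log2 0.31, SE 0.0432, adjusted p = 7.56e-06). At 24 h the values were 78.6, 74.0 and 71.1 CPM, 1.46-fold above TWEAK alone (log2 0.54, SE 0.0424, adjusted p = 1.87e-10), and log2 0.54 with the single TWEAK sample (adjusted p = 1.53e-06). The effect of NIK SMI1 was larger at 24 h than at 6 h by log2 0.23 (SE 0.0605, adjusted p = 0.0257), a call that was lost without TWEAK sample 2 or NIK SMI1 sample 1 or 2 of 6 h, or without TWEAK sample 1 or 2 or NIK SMI1 sample 1 of 24 h (adjusted p up to 0.0855). It was the only gene of the set whose effect of NIK SMI1 differed between the times by this test, which called 4.73% of all tested genes in either direction.

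With NIK SMI1 at 24 h, Tlr5 was called and Tlr4 stayed just short of the threshold. Tlr5 had 5.18, 6.51 and 5.71 CPM at 6 h, overlapping the TWEAK samples (log2 0.18, SE 0.131, adjusted p = 0.450), and 8.78, 6.84 and 6.21 CPM at 24 h, all above them (log2 0.52, SE 0.122, adjusted p = 0.00253). With the single TWEAK sample of few islet reads the 24 h difference was log2 0.47 and no longer called (adjusted p = 0.0981). Tlr4 had 5.43, 4.39 and 5.43 CPM at 6 h, inside the range of TWEAK alone or just below it (log2 -0.04, 95% interval -0.32 to 0.24, adjusted p = 0.884), and 5.44, 4.64 and 6.04 CPM at 24 h, all above the TWEAK samples but not past the test (log2 0.35, 95% interval 0.07 to 0.62, adjusted p = 0.0568). The 24 h value of Tlr4 was called in 5 of 24 alternative fits, with an adjusted p between 0.0288 and 0.0445. That Tlr5 passed at 24 h and Tlr4 did not is no test of a difference between the 2 genes.

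Nod1 was called lower with NIK SMI1 at 24 h on very few reads. The samples had 0.383, 0.290 and 0.130 CPM (17, 10 and 4 reads) against 0.264, 0.685 and 0.789 CPM (6, 32 and 33 reads) with TWEAK, and they overlapped (log2 -1.14, SE 0.389, adjusted p = 0.04). The call was lost without the TWEAK sample 2 or 3 or the NIK SMI1 sample 2 or 3 of 24 h (adjusted p between 0.0855 and 0.196), in DESeq2 (log2 -1.14, adjusted p = 0.0692) and with the single TWEAK sample of few islet reads (log2 -1.28, adjusted p = 0.0881). Myd88 again showed no called difference, with 10.6, 10.1 and 10.6 CPM at 6 h (log2 -0.04, 95% interval -0.25 to 0.17) and 11.9, 10.6 and 11.6 CPM at 24 h (log2 0.01, 95% interval -0.19 to 0.21).

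The samples with TWEAK and NIK SMI1 were compared with vehicle, whose samples also enter the comparison of TWEAK alone. At 6 h, 3 genes were still higher than vehicle (Tlr2, Nod2 and Cd14, against 7.24% of all tested genes) and 3 still lower (Tlr3, Tlr4 and Tlr5, against 6.70%). Nod2 was 1.57-fold higher (log2 0.65, adjusted p = 0.000204), and Tlr3 was 1.27-fold lower (log2 -0.34, adjusted p = 1.09e-06). The 6 h calls of Tlr2 (log2 0.58, adjusted p = 0.0335), Tlr4 (log2 -0.47, adjusted p = 0.0112), Tlr5 (log2 -0.41, adjusted p = 0.0291) and Cd14 (log2 0.28, adjusted p = 0.00433) were weaker. Tlr2 was lost without vehicle sample 2 or 3 or NIK SMI1 sample 1 or 2 of 6 h, and in a fit of the 6 h samples alone, Tlr4 without vehicle sample 1 or 3 or NIK SMI1 sample 2, Tlr5 without vehicle sample 1 or 3 or NIK SMI1 sample 1 or 3, and Cd14 without NIK SMI1 sample 2. The adjusted p then reached at most 0.174 for Tlr2, 0.0924 for Tlr4, 0.178 for Tlr5 and 0.0680 for Cd14.

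At 24 h, 2 genes were still higher (Tlr2 and Nod2, against 8.07% of all tested genes) and 2 still lower (Tlr3 and Tlr4, against 9.83%). Tlr2 was 1.59-fold higher (log2 0.67, SE 0.173, adjusted p = 0.00641) and Nod2 1.47-fold higher (log2 0.55, SE 0.133, adjusted p = 0.00332), a call lost without the vehicle sample 1 of 24 h (adjusted p = 0.0545). Tlr3 was 1.80-fold lower (log2 -0.84, SE 0.0410, adjusted p = 1.10e-14) and Tlr4 1.57-fold lower (log2 -0.65, SE 0.121, adjusted p = 0.000207). Tlr5 (log2 -0.32, 95% interval -0.58 to -0.06, adjusted p = 0.0652) and Cd14 (log2 -0.11, 95% interval -0.26 to 0.05, adjusted p = 0.364) no longer passed. The Tlr5 value was called with no filter, at 24 h alone, and without vehicle sample 2 or NIK SMI1 sample 1 of 24 h. Its adjusted p was then between 0.00588 and 0.0468. All vehicle samples of 24 h held islet reads and all NIK SMI1 samples of 24 h held nearly none, so in this comparison the treatment and the islet reads cannot be told apart.

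NIK SMI1 was never given without TWEAK, so an effect of its own cannot be told apart from a reversal of the response to TWEAK. The share of the response to TWEAK that was taken back with NIK SMI1 was computed from log2(CPM + 0.1) for each NIK SMI1 sample, relative to the group means of TWEAK and of vehicle. It was 46.6% ± 12.7 for Tlr2, 43.5% ± 15.8 for Nod2 and 48.2% ± 9.21 for Tlr3 at 6 h (SD, n = 3), values that differed by less than their spread. These SDs hold only the spread of the NIK SMI1 samples. The means of TWEAK and of vehicle were held fixed, so the SDs understate the uncertainty. Cd14 stood at 63.1% ± 17.6 and Tlr5 at 33.5% ± 27.2, and for Tlr4 the share of -8.94% ± 41.1 spanned 0. At 24 h it was 41.5% ± 11.9 for Tlr2, 59.0% ± 15.1 for Nod2, 39.3% ± 5.27 for Tlr3, 34.2% ± 19.2 for Tlr4 and 60.0% ± 30.4 for Tlr5. For Cd14, whose response at 24 h was small, it came to 151% ± 57.7, that is, its level ended near that of vehicle.

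**Figure D4:**
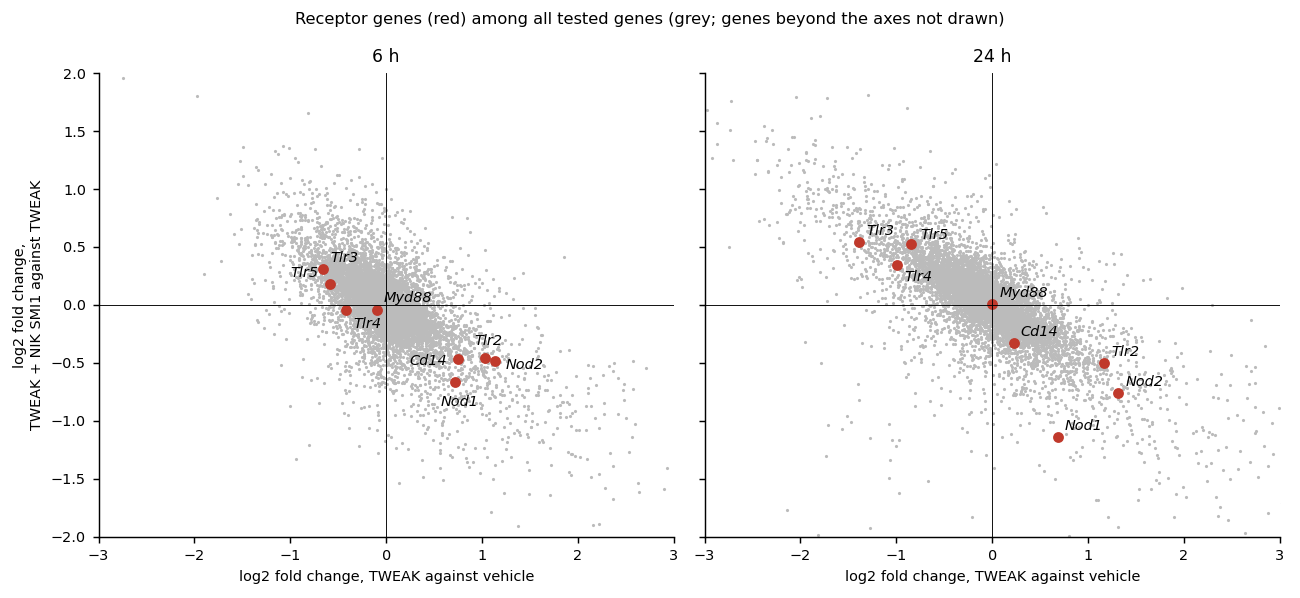
Log2 fold change with TWEAK against vehicle (horizontal axis) and with TWEAK plus NIK SMI1 against TWEAK (vertical axis) at 6 h and 24 h, for all tested genes in grey and the 8 receptor genes in red. The TWEAK samples enter both axes, so the axes are not independent, and the receptor genes lie inside the cloud of all genes.

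Time in culture changed some of the genes by itself. In vehicle cultures, Tlr3 was 1.5-fold higher at 24 h than at 6 h (log2 0.58, SE 0.0405, adjusted p = 8.93e-12), while Nod2 was 1.62-fold lower (log2 -0.70, SE 0.131, adjusted p = 0.000159) and Cd14 1.18-fold lower (log2 -0.24, SE 0.0689, adjusted p = 0.0102). These 3 of 8 genes stood against 29.9% of all tested genes that were called in either direction. The Cd14 samples of the 2 times overlapped, and its call was lost without the vehicle sample 1 of 24 h (adjusted p = 0.0974). The effect of TWEAK differed between the times for Tlr3, Tlr4 and Cd14, all towards lower values at 24 h, which is 3 of 8 genes against 8.91% of all tested genes in either direction.

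The wider pathway was described with 4 lists of textbook members. Of 14 other Toll-like receptor and co-receptor genes, 5 were tested and Tlr7, Tlr8, Tlr9, Tlr11, Tlr12 and Tlr13 were too low. With TWEAK, 1 of the 5 was called higher and 0 lower at 6 h (against 11.7% and 12.0% of all tested genes), and 1 was higher and 2 lower at 24 h (against 18.3% and 20.7%). Lbp, the lipopolysaccharide-binding protein that loads Cd14, rose at both times (log2 0.50, adjusted p = 0.00329 at 6 h and log2 0.54, adjusted p = 0.0162 at 24 h). Its samples overlapped at 24 h. Unc93b1, which escorts Tlr3 and other receptors to endosomes, fell at 24 h (log2 -0.63, adjusted p = 0.00467), as did Hsp90b1, the chaperone of Toll-like receptors (log2 -0.37, adjusted p = 5.55e-10). With NIK SMI1, 0 of the 5 were called at 6 h (against 5.34% of all tested genes higher and 5.70% lower) and 1, Hsp90b1, was higher at 24 h (log2 0.15, adjusted p = 0.00209, against 10.2%).

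**Figure D5:**
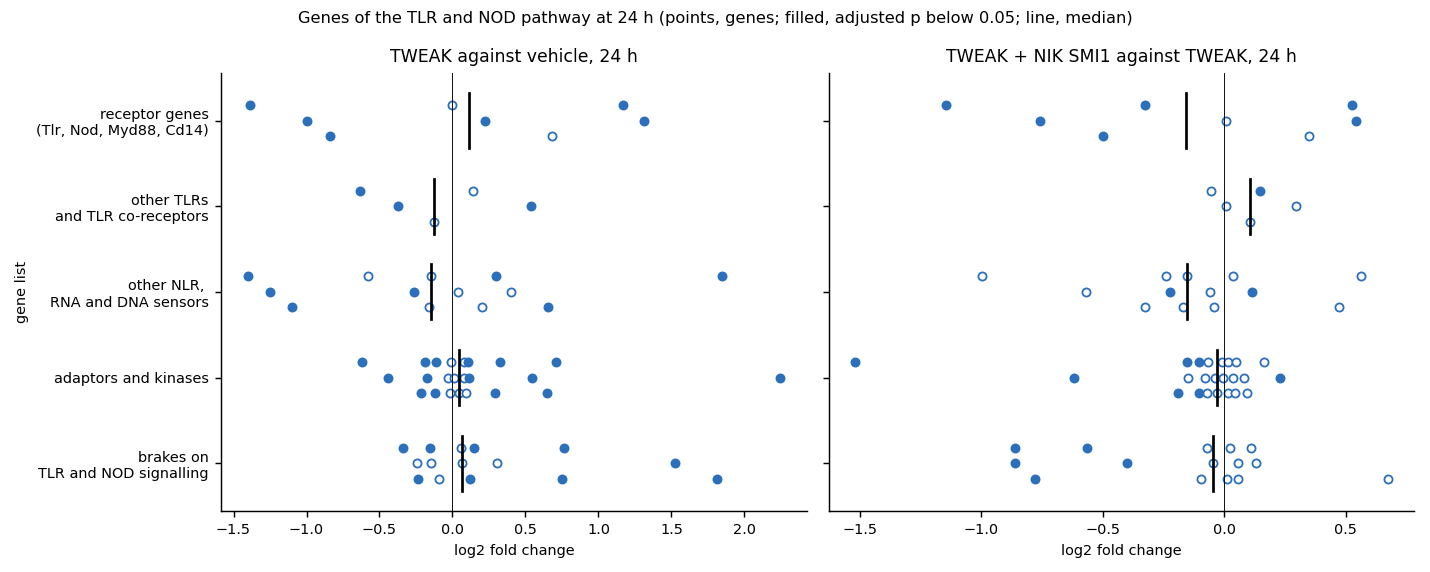
Log2 fold changes at 24 h with TWEAK against vehicle and with TWEAK plus NIK SMI1 against TWEAK for the tested genes of 5 lists, a point for each gene (filled where the adjusted p is below 0.05) and a line for the median. Each list holds genes on both sides of 0 with TWEAK, and its median stays within 0.16 of 0 on the log2 scale in both comparisons.

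Among 25 other cytosolic sensors, of which 13 were tested, 4 were higher and 2 lower with TWEAK at 6 h (against 11.7% and 12.0% of all tested genes), and 3 were higher and 4 lower at 24 h (against 18.3% and 20.7%). Rigi, a sensor of viral RNA, went up at 6 h, from 29.9 ± 0.813 to 59.5 ± 1.97 CPM (SD, n = 3, log2 1.002, adjusted p = 1.36e-13) and by log2 0.65 at 24 h (adjusted p = 1.02e-09). Casp4, the sensor of cytosolic lipopolysaccharide, rose from 0.237 ± 0.0291 CPM to 0.624 ± 0.101 CPM at 6 h (SD, n = 3, log2 1.37, adjusted p = 0.00319 at 6 h and log2 1.85, adjusted p = 0.0031 at 24 h) and was lower with NIK SMI1 at 6 h (log2 -1.91, adjusted p = 0.00186). Casp4 had only 193 reads over the 18 samples, fewer than the 280 of Nod1. Its vehicle mean at 24 h was 0.113 CPM, a level of few reads. Nlrp10 fell at both times (log2 -0.41, adjusted p = 0.0127 and log2 -1.25, adjusted p = 5.77e-08). Naip1, which senses bacterial secretion needles, fell too (log2 -0.58, adjusted p = 0.00906 and log2 -1.10, adjusted p = 2.01e-05). Naip6, of the same gene family, fell at 24 h (log2 -1.40, adjusted p = 0.0162). Genes of this family can share reads, and the split of counts among them is uncertain. With NIK SMI1, 3 of the 13 were lower at 6 h (against 5.70% of all tested genes), and 1 was higher and 1 lower at 24 h (against 10.2% and 8.29%).

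Of 24 adaptors and kinases, 23 were tested, and with TWEAK 6 rose and 2 fell at 6 h (against 11.7% and 12.0% of all tested genes), whereas 8 rose and 7 fell at 24 h (against 18.3% and 20.7%). Irf5, a transcription factor downstream of Myd88, rose most. Its level went from 0.592 ± 0.0657 to 2.07 ± 0.322 CPM by 6 h (log2 1.81, adjusted p = 7.40e-07) and, at 24 h, from 0.618 ± 0.246 to 3.09 ± 0.676 CPM (SD, n = 3, log2 2.25, adjusted p = 2.18e-08). NIK SMI1 lowered it at both times, to 1.23 ± 0.229 CPM at 6 h (log2 -0.78, adjusted p = 0.0229) and to 1.07 ± 0.139 CPM at 24 h (log2 -1.52, adjusted p = 4.10e-06). Ripk2, the kinase that Nod1 and Nod2 recruit, rose by log2 0.33 at 6 h (adjusted p = 0.00588) and by log2 0.71 at 24 h (adjusted p = 1.18e-06), and was lower with NIK SMI1 at 24 h (log2 -0.62, adjusted p = 1.09e-05). Ikbke (log2 0.65, adjusted p = 4.78e-13) and Traf3 (log2 0.54, adjusted p = 3.20e-12) rose at 24 h. Irf7, a factor of the interferon response, was called lower at 24 h (log2 -0.62, adjusted p = 0.0479), close to the threshold and with overlapping samples. With NIK SMI1, 1 of the 23 was higher and 4 lower at 6 h (against 5.34% and 5.70% of all tested genes), and 1 was higher and 6 lower at 24 h (against 10.2% and 8.29%).

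Of 17 known brakes on these pathways, 15 were tested, and with TWEAK 4 rose and 0 fell at 6 h (against 11.7% and 12.0% of all tested genes), whereas 6 rose and 3 fell at 24 h (against 18.3% and 20.7%). Il1rl1, the receptor of interleukin 33, rose by log2 0.93 at 6 h (adjusted p = 6.19e-06) and by log2 1.81 at 24 h (adjusted p = 4.86e-11). Socs1, a suppressor of cytokine signalling, rose by log2 1.27 (adjusted p = 7.71e-09) and log2 1.52 (adjusted p = 1.54e-10). Irak3, a kinase-like inhibitor of Myd88 signalling, rose by log2 1.14 (adjusted p = 0.000438) and log2 0.76 (adjusted p = 0.0138), and Tnfaip3, the ubiquitin-editing enzyme also called A20, rose at 6 h, from 338 ± 4.93 to 524 ± 3.79 CPM (SD, n = 3, log2 0.64, adjusted p = 1.60e-14). All of these 4 were lower with NIK SMI1 at 24 h, Il1rl1 by log2 -0.78 (adjusted p = 2.64e-05), Socs1 by log2 -0.86 (adjusted p = 1.75e-06), Irak3 by log2 -0.86 (adjusted p = 0.00873) and Tnfaip3 by log2 -0.56 (adjusted p = 9.19e-13). Sigirr, a receptor that dampens Toll-like receptor signals, fell with TWEAK at 24 h (log2 -0.34, adjusted p = 0.000236), and Pik3ap1 did not pass (log2 0.31, adjusted p = 0.0568) but was lower with NIK SMI1 (log2 -0.40, adjusted p = 0.0213). With NIK SMI1, 3 of the 15 were lower at 6 h (against 5.70% of all tested genes) and 5 at 24 h (against 8.29%), and 0 were higher at either time (against 5.34% and 10.2%).

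The median log2 fold changes with TWEAK at 24 h were 0.11 for the 8 receptor genes, -0.13 for the other Toll-like receptor genes, -0.15 for the cytosolic sensors, 0.04 for the adaptors and kinases and 0.07 for the brakes, beside -0.01 for all tested genes. With NIK SMI1 at 24 h they were -0.16, 0.11, -0.15, -0.03 and -0.05, beside 0.01 for all tested genes.

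The genes whose levels followed those of the receptor genes most closely over the 18 samples were named by Pearson's correlation of log2 CPM, as a description, since the samples share 6 group means. For Tlr2 they were Scube3 (r = 0.958), Spats2 and Pnpla8, and Fgd6 (r = 0.969) was among those of Nod2. For Cd14 they were Plat (r = 0.961), the tissue plasminogen activator gene, with App and M6pr. Tlr3 went with Gclc (r = 0.989), an enzyme of glutathione synthesis, Ramp3 and Eps8, Tlr4 with Pgap1 (r = 0.949), Hook1 and Grem1, and Tlr5 with Gprc5c (r = 0.939), Synpo and Ramp3. Ramp3 thus appears beside both Tlr3 and Tlr5. The closest named genes to Myd88 were 2610044O15Rik8 (r = 0.724) and Tbk1 (r = 0.670). Within the set, Tlr3 correlated with Tlr5 at r = 0.903 and with Tlr4 at r = 0.880, Nod2 with Cd14 at r = 0.827, and Nod2 with Tlr3 at r = -0.891, while Tlr2 and Cd14 were at r = 0.237.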

How the data were processed

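Raw counts were deposited by the authors for 18 samples, with no normalization. They had run HTSeqGenie, which used GSNAP for alignment to NCBI build 37, on single-end reads, and had counted, gene by gene, the exonic reads with a unique alignment. The deposited files also give RPKM values by the authors and the exonic length of each gene, of which the length served for the scale per kilobase and the RPKM entered no test. Labels and methods disagree about sequencer, read length and input RNA.

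Genes were matched by Entrez Gene identifier to RefSeq symbols (31049 of 36528). CPM are counts divided by the total of the sample. Genes with more than 10 reads in at least 4 samples entered 1 model with 6 group means in edgeR 4.0.16 and R 4.3.3 (TMM normalization, quasi-likelihood test, Benjamini-Hochberg adjustment over 15521 genes, threshold 0.05). Standard errors come from the F statistic, and 95% intervals of log2 fold changes use 12 residual degrees of freedom. Differences between time points were interaction contrasts. Samples of a group differed by more than sampling noise (chi-square per gene from 2.20 to 10.0). The files hold neither symbols nor positions. Promoters are RefSeq windows of GRCm38.p6, another build than that of the counts.

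The members and lists were chosen with earlier results of these data known. Named genes were the 10 receptor genes, list genes called with a rise above 2-fold with TWEAK or a fall of more than 1.5-fold with NIK SMI1, up to 3 further genes a list by size of change at 24 h, the 3 genes most correlated with each receptor gene above 1 CPM (some are not reported here), and markers. Replicate numbers 1 to 3 only name samples. Alternatives were the DESeq2 1.42.0 test, its size factors in edgeR, 2 other filters on low counts, each time point alone, CPM on TMM-scaled totals, the study's fold cut-offs, each sample left out, and, chosen after seeing the data, only the TWEAK sample with few islet reads. The scripts were tested on simulated data.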

Additional observations from a re-analysis of the deposited data

Results flagged for a closer look

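The effect of TWEAK differed between 24 h and 6 h, by a test of the difference itself, for 3 receptor genes. For Cd14 the difference was log2 -0.53 (adjusted p = 0.000311), for Tlr3 log2 -0.73 (adjusted p = 1.22e-09) and for Tlr4 log2 -0.57 (adjusted p = 0.0322). The effect of NIK SMI1 under TWEAK differed between the times for Tlr3 by log2 0.23 (adjusted p = 0.0257). With TWEAK, the differences of Cd14 and Tlr3 kept their call in all 22 alternative fits, and that of Tlr4 lost it in 7. The difference of Tlr3 with NIK SMI1 lost its call in 6 of 22. The groups of 24 h also differed in islet reads.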

How the results depend on the processing

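Of 38 called values of single genes, 25 kept their direction and their call with the other test, scaling and filters, with each time point alone, with each sample left out and, where it was run, with the single TWEAK sample of few islet reads. The fold cut-offs are not in this count and ended further calls. Some values of Tlr2, Tlr4 and Tlr5 that were not called passed in alternative fits, as given beside the results. With the fold cut-offs of the study (2-fold with TWEAK, 1.5-fold with NIK SMI1), TWEAK lowered 0 receptor genes at 6 h and 1, Tlr3, at 24 h. The share of all tested genes that TWEAK lowered by more than 2-fold is not given here. NIK SMI1 lowered 0 at 6 h (against 1.10% of all tested genes) and 2, Nod1 and Nod2, at 24 h (against 1.75%). It raised 0 at either time, and the share of all tested genes raised by more than 1.5-fold is not given here. The values with only the TWEAK sample of 24 h that had few islet reads stand beside the results. Leaving out single samples gave 1 to 3 genes higher and 1 to 3 lower for NIK SMI1 with TWEAK against vehicle at 6 h. The same comparison gave 1 to 2 higher at 24 h. The effect of NIK SMI1 at 24 h against 6 h gave 0 to 1 higher, and vehicle at 24 h against 6 h gave 1 to 2 lower. Listed here are only counts that changed by a factor above 1.5 or to 0, and smaller changes of other counts stand beside the results. The shares of all tested genes in these fits are not given here, so the ranges only show how far the counts moved. The named samples behind these ranges stand beside the results, and the cause was not tested.

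The sign turned only for values that were not called. For Myd88 with TWEAK at 24 h the log2 value was 0.001 with no filter, 0.000 with filterByExpr, 0.005 with the time point alone and -0.125 to 0.071 with a sample left out. For Myd88 with NIK SMI1 it was -0.097 to 0.006 at 6 h with a sample left out, and at 24 h it was -0.001 with the time point alone, -0.064 to 0.132 with a sample left out and -0.177 with the single TWEAK sample. For Myd88 against vehicle at 24 h under NIK SMI1 the range was -0.053 to 0.073, for Tlr4 with NIK SMI1 at 6 h -0.114 to 0.048, for Nod1 against vehicle at 6 h under NIK SMI1 -0.265 to 0.315, and for Tlr2 between the times of TWEAK -0.029 to 0.248.

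Leaving out all libraries with islet reads could not be run for the other comparisons, since it would empty groups. No paired analysis was possible because the labels give no replicate numbers. Nod1 had 4 to 33 reads per sample, and Tlr1 and Tlr6 had too few for a test.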
